A study of Mus musculus with 13 samples.

Results

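The clustered protocadherins are cell-surface adhesion proteins of the cadherin superfamily, encoded in the mouse by 3 neighbouring gene arrays named alpha, beta and gamma. All rows of the deposited tables named as a member of one of these arrays were taken, which gave 61 of 23845 genes, 17 alpha, 22 beta and 22 gamma. They were measured by RNA-seq in 13 cell lines grown from mammary gland tumours of FVBN/J mice. In 6 lines the labelled genotype was wild type (WT) and in 7 it was JNK knockout (KO), that is, without the c-Jun N-terminal kinase, a stress-activated kinase family. No treatment, time or age is labelled, and the labels do not name the JNK genes removed, the Cre or allele used, or the oncogene that drives the tumours beyond a series title that speaks of HER2. Each sample is a separate line, and WT lines 4 and 5 have titles that share a number. If some lines share an animal, a p-value here reflects the spread among cultures and not among mice. WT and KO lines carry different title prefixes, so anything tied to colony or handling cannot be told apart from genotype.

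In an alpha or gamma gene a single large variable exon, with a promoter of its own, is spliced to constant exons that all genes of the array share, whereas each beta gene stands alone. In neurons a cell switches on a few of these promoters, a choice tied to DNA methylation, to the insulator protein CTCF and to cohesin, and the proteins then recognise the same isoform on a neighbouring cell. The last genes of the alpha and gamma arrays, called C-type, are used more evenly across neurons, and in several tumour types, breast cancer among them, the arrays are known for promoter methylation.

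On the RefSeq annotation of GRCm38 the arrays lie in one stretch of chromosome 18, with alpha gene starts from 36930285 to 37143678, beta from 37264998 to 37518353 and gamma from 37661775 to 37819546. On the GENCODE annotation of the same build, of a gamma transcript's median 4721.5 bases, 2119 bases lie in exons that other gamma genes also use. For alpha the medians were 2860 shared bases of 5341, and for beta 0 of 3714. The gamma array divides into 19 genes of the A and B types and the 3 C-type genes Pcdhgc3, Pcdhgc4 and Pcdhgc5. Pcdha4-g, Pcdha6-g and Pcdha7-g are annotated from the alpha array into the gamma constant exons, and Pcdhgb8 is annotated as a transcribed pseudogene. Reads in shared exons cannot be given to 1 gene directly, and the authors' software, RSEM, divides them by a model. The trace of this was plain in the deposited expected counts: 98.4% of the 247 nonzero beta values were whole numbers, against 0.760% of 263 gamma values. Beta values are therefore close to plain read counts, and the split between gamma genes is an estimate.

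Library totals ran from 38298600 to 46689800 expected counts, so 3 counts equal 0.0612 to 0.0811 CPM (counts scaled to a common library size). Mapk8 and Mapk9, which encode JNK1 and JNK2, were lower in every KO line than in any WT line, with log2 changes of -2.37 (adjusted p = 9.1e-05) and -1.63 (adjusted p = 0.00091, edgeR). Of 16 epithelial markers all 16 passed the filter for testing, and their summed level was 7761 to 10780 TPM (transcript abundance, scaled for length to a common sum) in WT lines and 6899 to 19547 TPM in KO lines. KO line 2 stood apart: Epcam was at 33.4 TPM there and at 234 TPM or more in the other 12 lines, Vim was at 3774 TPM, and the epithelial sum of 19547 TPM was this line's, with Krt5 at 9482 and Krt14 at 8728 TPM. The 19 mesenchymal markers summed to 7022 TPM there, against at most 1816 TPM in the other KO lines and 1876 TPM in WT lines. The 15 neuronal markers, of which Elavl4 and Nefl were at 0 in all lines, summed to 25.2 to 71.9 TPM in WT lines and 14.9 to 347 TPM in KO lines, where the top value was in KO line 3 and was almost all Stmn2 (317 TPM). Some markers also differed between genotypes with edgeR, where 4.33% of all genes tested were called higher and 4.17% lower. Of the epithelial list the basal genes Krt5, Krt14 and Trp63 were higher in KO lines and the luminal genes Krt8 and Krt18 lower. Of 18 mesenchymal markers tested 0 were higher and 2 lower. Of 5 neuronal and 6 glial and Schwann cell markers tested 1 in each list was higher and 1 lower. Of 1 endothelial and 2 immune cell markers tested 0 passed with edgeR, also at an unadjusted p under 0.05, or with DESeq2. The part of these differences in the protocadherin values was not tested. These are bulk samples, in which fewer cells of a type and less RNA per cell cannot be told apart.

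Across the 13 lines the arrays were used very unequally: Pcdhgc3 led the gamma array in every line, and the gamma genes next to it in level differed between lines. Gamma held 61.7% to 91.0% of the TPM summed over all members in WT lines and 92.1% to 96.9% in KO lines. Beta held 9.005% to 36.8% and 3.05% to 7.91%, and alpha at most 1.54%. TPM is used here to compare genes of unlike length within a line, and CPM, scaled with the TMM factors, to compare lines, since relative to CPM the TPM values of 9923 genes were lower in KO lines by a median of 0.23 on the log2 scale.

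**Figure D1:**
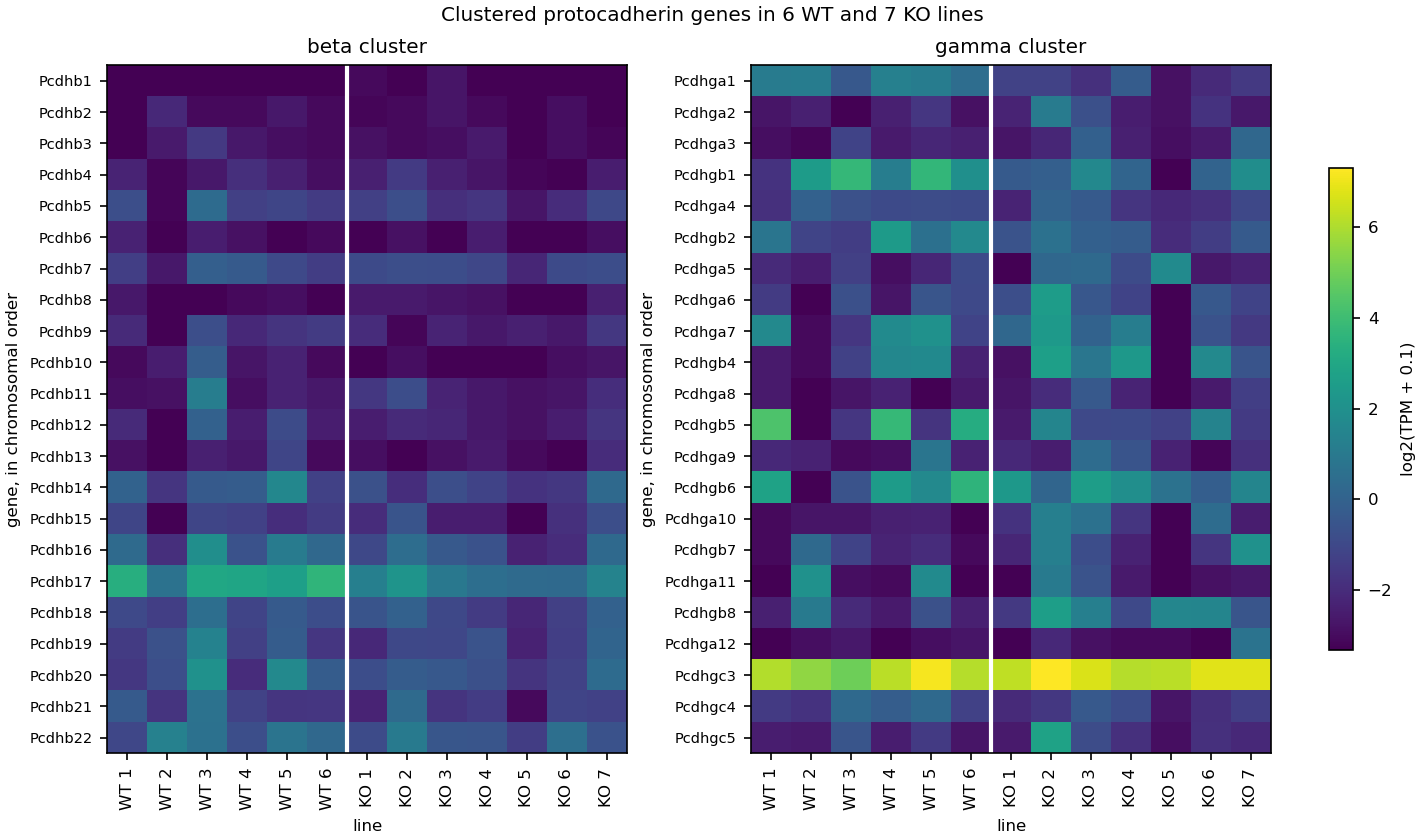
Level of each beta and gamma gene (rows, in chromosomal order) in each line (columns, WT left and KO right of the white bar), as log2(TPM + 0.1). Pcdhgc3 is bright in all 13 lines, Pcdhb17 leads the beta array in 11 of them, and the bright gamma A and B genes change from line to line.

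Alpha genes were close to silent. They summed to 0 to 147 expected counts per line, with 0 in WT line 2 and KO line 6. The 147 counts of WT line 3 were mostly Pcdha8, whose 1.07 TPM in that line was the only alpha value of at least 1 TPM. Pcdhac1 was at 0 in all lines, and so were Pcdha1, Pcdha6, Pcdha6-g and Pcdha7. Pcdhac2, the C-type gene known for the spacing of serotonergic axons, had counts in WT line 3 alone, 21.5 of them. The summed level had a median of 0.213 CPM in WT lines and 0.250 CPM in KO lines. In WT line 3, where alpha stood at 3.93 CPM, the 11 glial and Schwann cell markers summed to 414 TPM against at most 218 TPM in the other WT lines. Its neuronal marker sum was also the highest of the WT lines (71.9 TPM, next 66.8), and its mesenchymal sum of 1363 TPM was not (highest 1876 TPM). The part of such marker differences in the alpha counts was not tested.

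Beta genes were read at low level, and mostly from the far end of the array. Pcdhb14 to Pcdhb22, the last 9 of the 22 genes, a split chosen after the values were seen, held 77.5% to 94.0% of the beta TPM of a line, and of the first 13 genes only Pcdhb5 and Pcdhb11 reached 1 TPM, each in WT line 3 alone. In all, 10 beta genes reached 1 TPM in some line. A median of 2.5 genes did so per WT line (1 to 9) and 1 per KO line (1 to 4), but at a limit of 0.5 TPM the median was 4 in both. WT line 3 was the line with 9. The beta array summed to 11.3 to 65.5 CPM in WT lines, with a median of 31.2, and to 7.79 to 30.1 CPM in KO lines, with a median of 14.02. The groups overlapped, because WT line 2 lay at the low end and KO lines 2 and 7 at the high end.

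**Figure D2:**
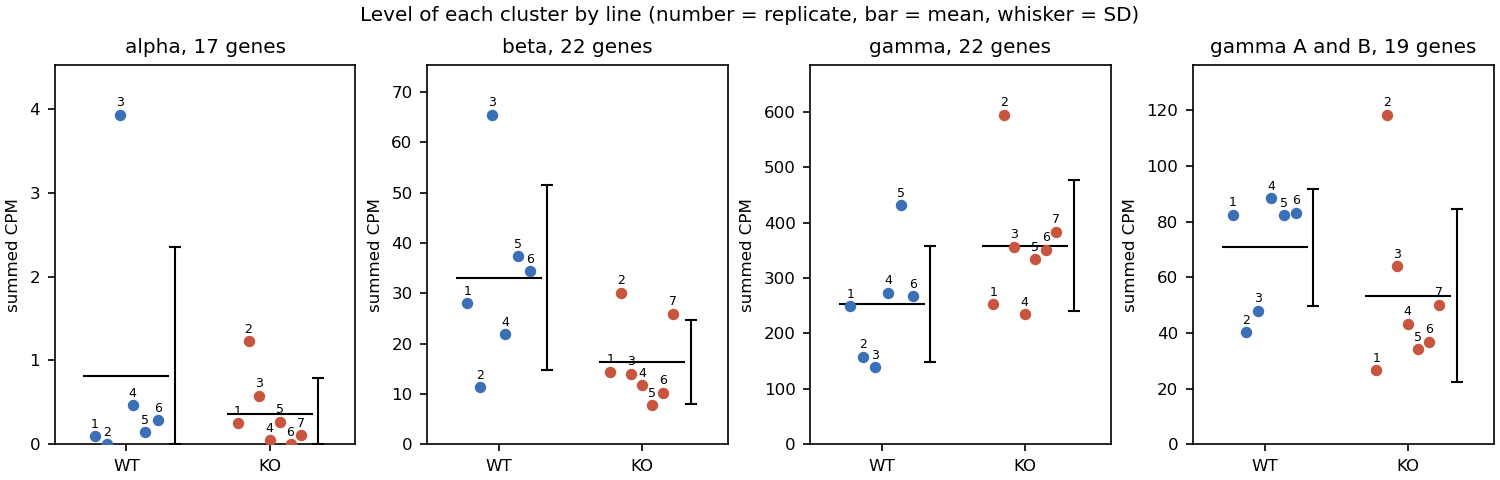
Summed CPM of each array by line, WT in blue and KO in red; numbers are the line's replicate number, bars the mean and whiskers the SD, ending at 0 where they would pass below it. Groups overlap in all 4 panels, with the alpha sum at 3.93 CPM in WT line 3 and the gamma sum at 595 CPM in KO line 2.

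Pcdhb17 was the leading beta gene in 11 of 13 lines, and Pcdhb22 in WT line 2 and KO line 6. In WT lines 1, 4 and 6 Pcdhb17 made 63.1%, 60.3% and 68.9% of the beta TPM. In the other WT lines it made 24.2% to 31.4%, and in KO lines 21.9% to 46.1%. The beta mixture of a line can be put as an effective number of genes, the exponential of the Shannon entropy of the TPM shares, which is 1 when 1 gene holds all and 22 when all are equal. It was 3.88 to 11.2 in WT lines, with a median of 5.96, and 9.58 to 12.1 in the 6 KO lines with at least 5 TPM in the array. KO line 5, at 2.56 TPM, was below that limit. The WT lines with the lowest values, lines 6, 1 and 4, were those in which Pcdhb17 was most dominant.

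Pcdhb17 measured 16.6, 2.60, 14.9, 12.5, 10.5 and 22.5 CPM in WT lines 1 to 6. In KO lines 1 to 7 it measured 4.62, 8.93, 3.39, 2.46, 3.33, 2.12 and 5.28 CPM. Of the WT lines, 5 of 6 were above every KO line, and WT line 2 fell among the KO lines. Pcdhb17 fell in KO lines by 1.62 on the log2 scale (SE 0.44, adjusted p = 0.038, edgeR quasi-likelihood test), the means being 13.3 ± 6.64 CPM (SD, n = 6) and 4.31 ± 2.32 CPM (SD, n = 7). The call was near the threshold: it held in 2 of 13 fits that left out a line, without WT line 2 (adjusted p = 0.013) and without KO line 2 (adjusted p = 0.019), and was lost in the other 11, with adjusted p of at most 0.084. It was also lost with limma-voom (adjusted p = 0.095) and with WT lines 4 and 5 summed (0.058). Without Pcdhb17 the beta array summed to a median of 11.7 CPM in WT lines (8.73 to 50.6) and 9.76 CPM in KO lines (4.46 to 21.2).

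The other 10 beta genes tested did not pass the test. Pcdhb16 ran from 0.491 to 11.6 CPM in WT lines (median 3.29) and from 0.460 to 4.27 CPM in KO lines (median 1.63), with a log2 change of -1.10 (adjusted p = 0.33). Pcdhb20 had medians of 1.155 and 0.974 CPM and a log2 change of -1.15 (adjusted p = 0.33). Pcdhb22 had medians of 2.20 and 1.04 CPM and a log2 change of -0.42 (adjusted p = 0.65). In all 3 the groups overlapped broadly, WT line 3 being the highest of 13 for Pcdhb16 and Pcdhb20.

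In the gamma array 1 C-type gene held most of the RNA. The whole array summed to 139 to 432 CPM in WT lines (median 258) and 234 to 595 CPM in KO lines (median 351), and the A and B genes alone to 40.2 to 88.3 CPM (median 82.4) and 26.7 to 118 CPM (median 43.3). Both sums overlapped between the genotypes, KO line 2 being the highest of the 13 in each. Pcdhgc3 was the leading gamma gene in all 13 lines, at 31.0 to 140 TPM in WT lines and 69.4 to 153 TPM in KO lines. It made 61.1% to 79.8% of the gamma TPM in WT lines, with a median of 67.2%, and 76.2% to 89.5% in KO lines, with a median of 86.4%. The ranges overlapped through WT line 5, at 79.8%, and KO line 2, at 76.2%. Pcdhgc3 is known from neurons for a role in dendrite branching in which it binds Axin1.

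Pcdhgc3 measured 166, 117, 85.6, 183, 346 and 183 CPM in WT lines 1 to 6. In KO lines 1 to 7 it measured 225, 456, 289, 189, 299, 313 and 332 CPM. WT line 5 was the second highest of all 13, and the other 5 WT lines were below every KO line. The log2 change was 0.74 (SE 0.29, adjusted p = 0.126, edgeR), which did not pass. Without WT line 5 it was 1.03 (adjusted p = 0.031). That was the only 1 of 13 edgeR fits leaving out a line to pass, the others having adjusted p of at most 0.211. Of 9 other settings 0 passed.

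The other C-type genes were low. Pcdhgc4, known for a role in the survival of interneurons, ran from 0.515 to 3.42 CPM in WT lines and 0.216 to 2.00 CPM in KO lines (log2 change -0.99, adjusted p = 0.29). Pcdhgc5 was at 20.2 CPM in KO line 2 and at most 1.62 CPM in any other line. Its log2 change of 2.74 (adjusted p = 0.18) became 0.01 (adjusted p = 0.996) without KO line 2, the line with high mesenchymal and low Epcam values. DESeq2, which replaced the 770 counts of that line by 17 as an outlier, gave -0.01.

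The A and B genes showed the line-by-line choice most clearly. Pcdhgb5 led in WT lines 1 and 4, at 19.95 and 13.7 TPM. Pcdhgb1 led in WT lines 2, 3 and 5, at 5.51, 13.4 and 12.9 TPM. Pcdhgb6 led in WT line 6, at 11.9 TPM, with Pcdhgb5 at 9.48 TPM. Among the KO lines Pcdhgb6 led in lines 1 and 3 (5.01 and 5.90 TPM), Pcdhgb4 in lines 2, 4 and 6 (6.28, 4.94 and 3.12 TPM), Pcdhga5 in line 5 (3.32 TPM) and Pcdhgb7 in line 7 (4.03 TPM). Pcdhgb6 was thus the only gene to lead in both genotypes.

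**Figure D3:**
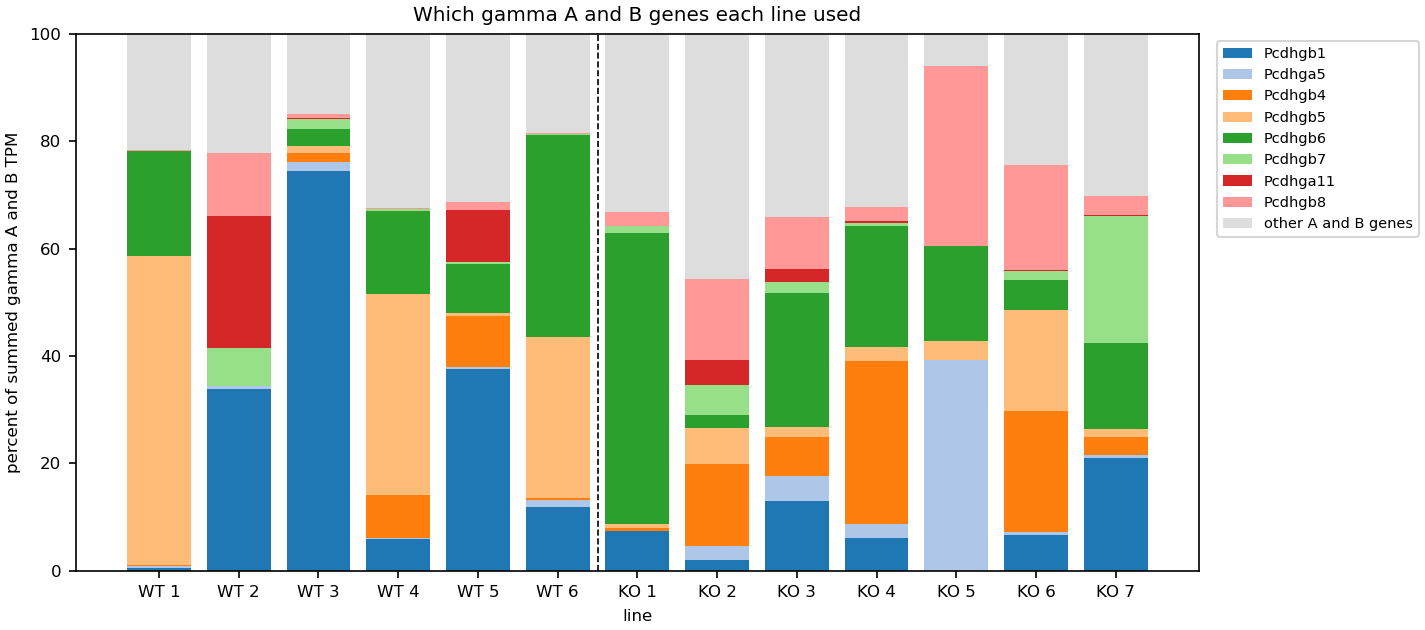
Share of the summed gamma A and B TPM held by each of the 8 genes that reached 15% in some line, with the other 11 genes in grey; the dashed line parts WT from KO lines. Pcdhgb1 makes 74.5% in WT line 3, Pcdhgb5 57.4% in WT line 1 and Pcdhgb6 54.2% in KO line 1, while no gene passes 15.3% in KO line 2.

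The leading A or B gene held 33.8% to 74.5% of the A and B TPM in WT lines (median 37.7%) and 15.3% to 54.2% in KO lines (median 25.1%). The effective number of A and B genes was 3.38 to 7.96 in WT lines (median 5.63) and 4.19 to 12.6 in KO lines (median 9.07). The lowest of the KO group was KO line 5, where 8 of 19 genes were at 0, and the highest were KO lines 2 and 3. No A or B gene was at 0 in KO lines 2, 3, 4 and 7. In KO line 5 the genes at 0 estimated counts included the neighbours Pcdhga6, Pcdhga7, Pcdhgb4 and Pcdhga8, and then Pcdhga10, Pcdhgb7 and Pcdhga11, while Pcdhga5 and Pcdhgb8 were read at 13.2 and 11.5 CPM. In WT line 2, 4 genes were at 0, among them Pcdhgb5 and Pcdhgb6.

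The level of some members differed widely between lines of 1 genotype, and that of Pcdhgb5 in WT lines was close to all or none. Pcdhgb5 measured 46.8, 0, 0.57, 32.7, 0.49 and 24.5 CPM in WT lines 1 to 6. In KO lines it measured 0.200 to 7.86 CPM with a median of 1.12, KO lines 2 and 6 being the high ones. So 3 WT lines stood above all others and 3 were as low as most KO lines, and the log2 change of -2.68 (SE 1.30, adjusted p = 0.21) did not pass.

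Pcdhgb1 measured 0.449, 13.3, 35.5, 5.22, 30.4 and 9.70 CPM in WT lines 1 to 6, and 0 to 10.2 CPM in KO lines (median 2.44). WT lines 3 and 5 were the highest, WT line 1 was below 6 of the 7 KO lines, and the log2 change was -2.003 (SE 0.97, adjusted p = 0.21). Pcdhgb6 ran from 0 to 32.0 CPM in WT lines (median 10.8) and from 2.16 to 16.3 CPM in KO lines (median 8.17), with a log2 change of -0.47 (adjusted p = 0.79). It was at 0 in WT line 2 and in no KO line.

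WT lines 4 and 5, with the shared number in their titles, differed in their leading A or B gene. Pcdhgb5 was at 13.7 TPM in line 4 and 0.20 TPM in line 5, and Pcdhgb1 at 2.19 and 12.9 TPM. Both lines read Pcdhgb4, at 2.92 and 3.21 TPM against at most 0.31 TPM in the other WT lines. Both also read Pcdhga7, at 3.28 and 4.06 TPM, as did WT line 1 at 3.07 TPM. As the cosine between the A and B TPM values of lines 4 and 5, where 1 means the same proportions, the likeness was 0.338, the 8th of the 15 WT pairs. WT pairs had a median cosine of 0.338 (0.039 to 0.938), KO pairs 0.515 (0.215 to 0.844) and pairs of unlike genotype 0.368 (0.039 to 0.781). The most alike pair was WT lines 1 and 4, both led by Pcdhgb5. For all 13 lines the nearest other line had the same genotype, but for 9 of 13 when Pearson correlation of log2(TPM + 0.1) replaced the cosine. Over the beta genes it was 9 of 13 by cosine. These are descriptions over lines that share genes and array, with no test.

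**Figure D4:**
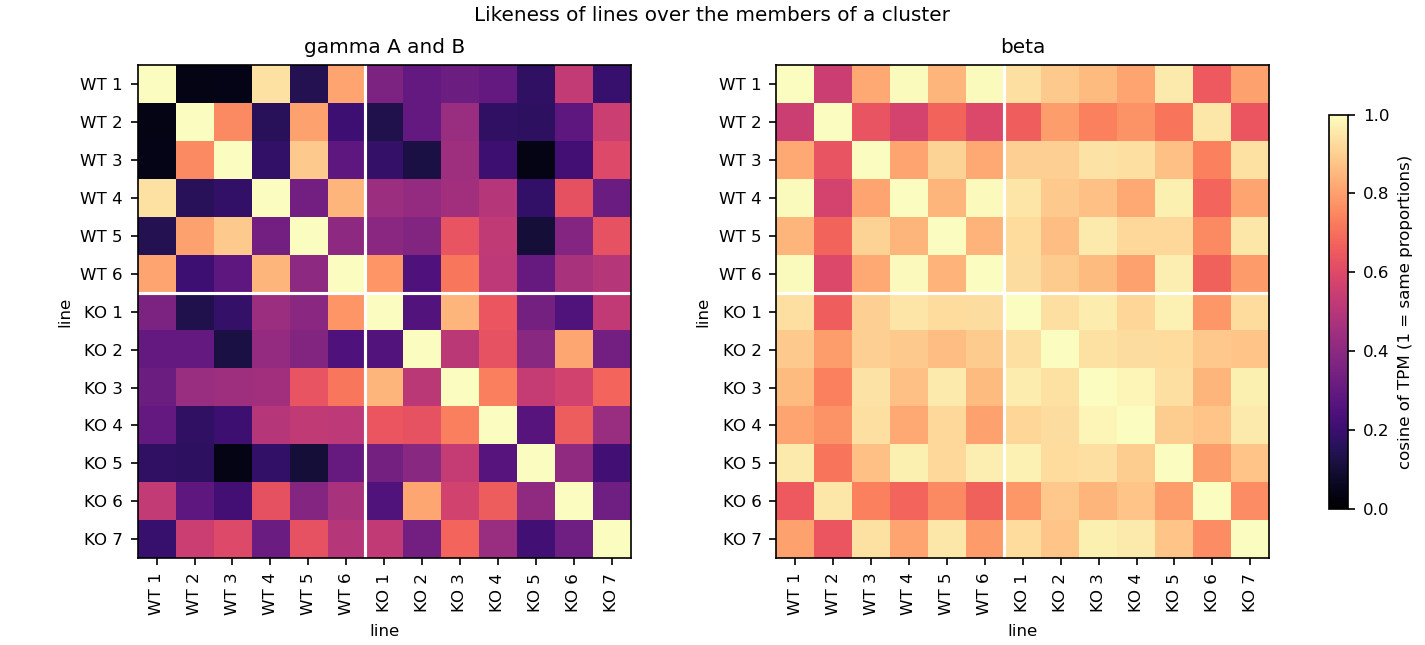
Cosine between the TPM values of each pair of lines over the 19 gamma A and B genes (left) and the 22 beta genes (right), from 0 (dark) to 1 (bright); white lines part WT from KO lines. In the gamma panel values run from 0.039 to 0.938, and in the beta panel from 0.554 to 0.996.

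Pcdhga1, the first gene of the gamma array, was the member with the clearest difference between genotypes. It measured 4.84, 5.08, 1.78, 5.66, 4.99 and 3.31 CPM in WT lines 1 to 6. In KO lines 1 to 7 it measured 0.949, 0.917, 0.481, 1.96, 0.162, 0.389 and 0.688 CPM. Of the WT lines, 5 of 6 were above every KO line, and the overlap was WT line 3 with KO line 4. Pcdhga1 fell by 2.43 on the log2 scale (SE 0.50, adjusted p = 0.012, edgeR quasi-likelihood test), the means being 4.28 ± 1.45 CPM (SD, n = 6) and 0.792 ± 0.586 CPM (SD, n = 7). The call held in all 13 fits that left out a line, with adjusted p from 0.0056 to 0.028.

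Pcdhga10 was near the floor in every WT line, at 0 to 0.245 CPM (median 0.126). In KO lines 1 to 7 it measured 0.549, 6.63, 3.94, 0.559, 0, 3.29 and 0.222 CPM. Of the KO lines, 5 of 7 were above every WT line, and KO lines 5 and 7 were not. The log2 change of 4.05 (SE 1.19, adjusted p = 0.051, edgeR) missed the threshold, and DESeq2 gave an adjusted p of 0.0025, but limma-voom gave a log2 change of 2.90 (adjusted p = 0.28). Without KO line 5 the edgeR log2 change was 4.28 (adjusted p = 0.025). Without KO line 7 or any WT line it did not pass, with edgeR adjusted p from 0.057 to 0.098. Without any other KO line Pcdhga10 fell below the filter and was not tested.

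Pcdhgb8 ran from 0.154 to 4.75 CPM in WT lines (median 0.307), with line 2 the highest. In KO lines it ran from 0.674 to 18.0 CPM (median 6.25), 4 of 7 lines being above every WT line. Its log2 change of 2.51 (SE 0.99) had an adjusted p of 0.127 with edgeR, 0.131 with limma-voom, 0.030 with DESeq2 and 0.031 with edgeR without WT line 2 (log2 change 3.88). The other edgeR fits that left out a line did not pass, with adjusted p from 0.116 to 0.201.

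**Figure D5:**
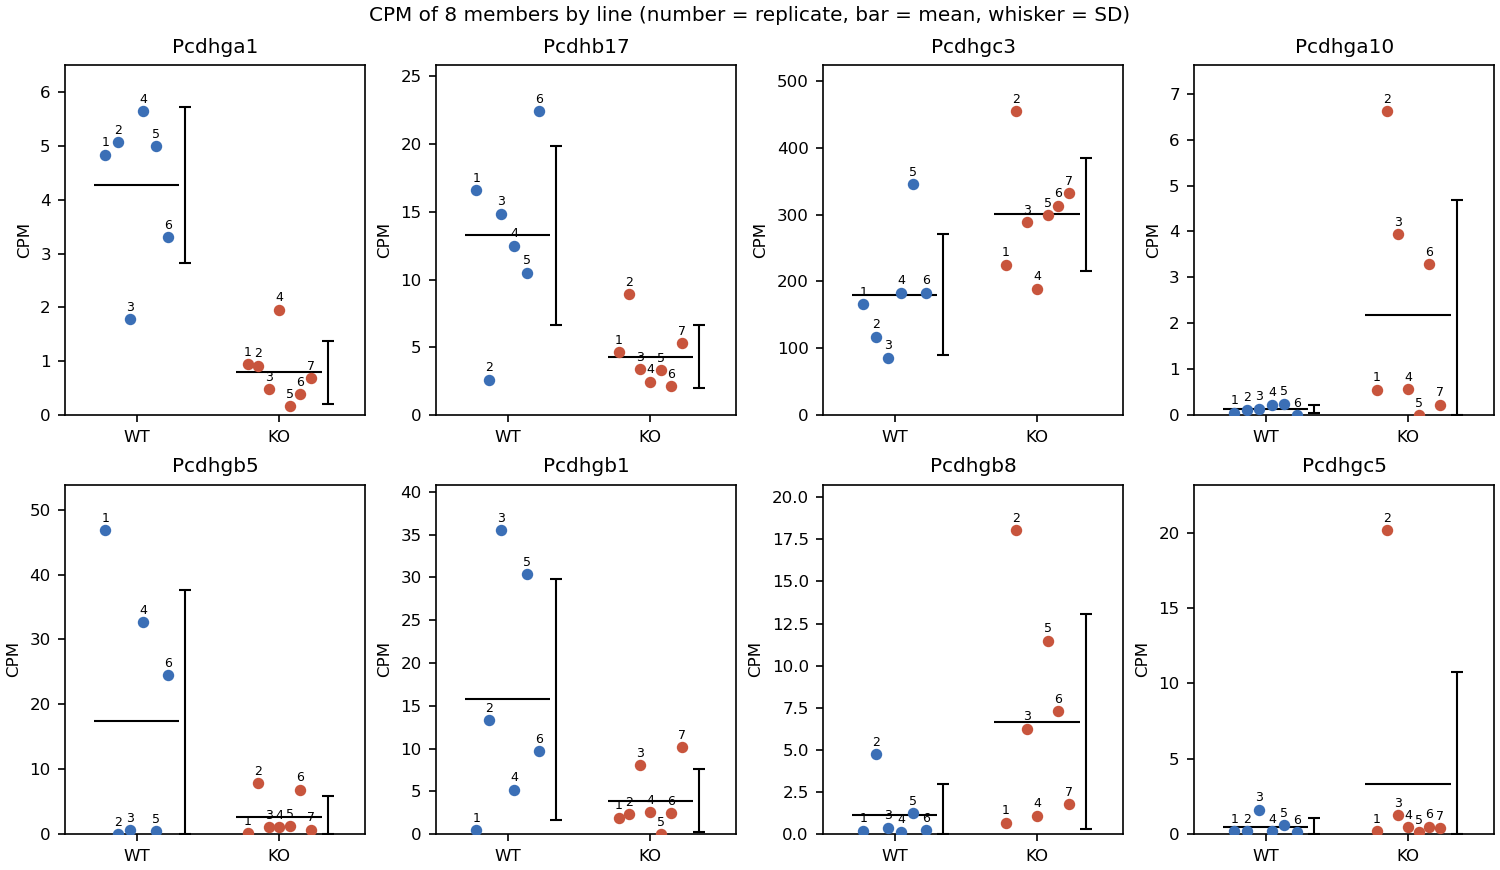
CPM of 8 members by line, each panel with its own linear axis from 0; numbers are the line's replicate number, bars the mean and whiskers the SD, ending at 0 where they would pass below it. Pcdhga1 and Pcdhb17 are lower in KO lines with 1 WT line inside the KO range, and Pcdhgc3 is high in WT line 5. Pcdhgb5 and Pcdhgb8 are high in some lines of a group and near 0 in others, and Pcdhgc5 is high in KO line 2 alone.

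Over the whole set, 29 of the 61 members passed the filter for testing, 0 alpha, 11 beta and 18 gamma, and 32 did not. The filter asks for counts in several lines, so a member read from few lines could fail it. Pcdhga11, with 1146 expected counts, of which 436 in WT line 2 and 398 in WT line 5, was not tested, and Pcdhb15, with 198, was. Of the 29 tested, 2 passed at an adjusted p of 0.05, which is 6.90%, against a background of 8.51% of the 13058 genes tested. Both were lower in KO lines, where the background was 4.17%, and 0 were higher, where it was 4.33%. At an unadjusted edgeR p under 0.05 there were 5 members higher and 2 lower. These were 7 of 29 members, beside 3431 of the 13058 genes tested, in either direction. DESeq2 called 2 members higher and limma-voom 0, and DESeq2 called more of all genes than edgeR did. In 0 of 29 members did the groups not overlap in CPM, against 4.05% of all genes tested. The share called is near the background, so the count is no result about the members. Their median log2 change was -0.15, against 0.01 for all genes tested. For the 11 beta genes it was -0.64, with 9 below 0, and for the 18 gamma genes 0.44, with 8 below 0.

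The members varied more between lines of the same genotype than most genes did. The median within-group SD of log2(CPM + 0.1) was 1.33 for the 29 members tested and 0.446 for all genes tested, and all 29 lay above the latter. The members were also lower, at a median of 1.91 CPM against 31.6 CPM, and the part of low counts in the spread was not tested. Pcdhgc3, the most abundant member, had a mean of 180 ± 90.2 CPM (SD) over the 6 WT lines and of 300.6 ± 85.1 CPM (SD) over the 7 KO lines.

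Genes that act on the choice of protocadherin promoters are read against the same background, 8.51% of all genes called and 4.17% called lower. Of 15 measured cohesin, CTCF and insulation factors, 0 passed the test with edgeR, DESeq2 or limma-voom. At an unadjusted edgeR p under 0.05 there was 1, lower, beside 3431 of the 13058 genes tested, in either direction. Ctcf had a log2 change of -0.25 (adjusted p = 0.24), the cohesin subunit gene Rad21 -0.30 (0.28), Stag2 -0.38 (0.16), the cohesin-associated gene Pds5b -0.56 (0.20) and the cohesin-release gene Wapl, listed as Wapal, -0.07 (0.78). Of 25 DNA methylation and heterochromatin factors tested, 2 passed, both lower, a share near that background. Tet1, which oxidises methylated cytosine, fell by 1.93 on the log2 scale (adjusted p = 0.034), and Mbd1, which binds methylated DNA, fell by 0.43 (adjusted p = 0.039). Both calls were lost in most fits that left out a line, holding in 5 and 3 of 13. The methyltransferase genes Dnmt1 (-0.24), Dnmt3a (-0.64) and Dnmt3b (-0.53) and the silencing factors Smchd1 (-0.17) and Setdb1 (-0.03) did not pass.

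Of 32 tested genes for binding partners and effectors, 4 passed and all were lower, beside the 4.17% of all genes tested that were called lower. Ptk2, the focal adhesion kinase that alpha and gamma protocadherins bind and inhibit, fell by 1.07 on the log2 scale (adjusted p = 0.0082). Prkca, a member of the protein kinase C family, which phosphorylates the shared gamma tail, fell by 1.33 (adjusted p = 0.0068). Ncstn, a subunit of the secretase that cleaves protocadherins, fell by 0.50 (adjusted p = 0.012), and Pak1, a kinase that acts below Rac1 and Cdc42, fell by 1.34 (adjusted p = 0.014). These 4 calls held in all 13 fits that left out a line.

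Of 13 tested protocadherins and giant cadherins outside the arrays, 1 was higher and 1 lower with edgeR, 2 and 4 with DESeq2, and 0 and 2 with limma-voom. Over all genes tested, edgeR called 4.33% higher and 4.17% lower, and DESeq2 called more genes than edgeR in both directions. Dchs1, a giant cadherin and the ligand of Fat4, was at 0 to 0.06 TPM in WT lines and 0.02 to 7.55 TPM in KO lines, and rose by 6.89 on the log2 scale (adjusted p = 0.0096). Pcdh12, an endothelial and trophoblast protocadherin, fell by 4.52 (adjusted p = 0.041), a call that held in 2 of 12 fits that left out a line. Of 29 tested genes that flank the arrays on chromosome 18, 0 were higher with edgeR (2 at an unadjusted p under 0.05, and 1 with DESeq2). With edgeR 3 were lower, beside the 4.17% of all genes tested that were called lower. Lower were also 6 at an unadjusted edgeR p under 0.05, 3 with DESeq2 and 2 with limma-voom. Such an unadjusted edgeR p was found, in either direction, for 3431 of the 13058 genes tested. The 3 called with edgeR were Spry4 (log2 change -4.54), an inhibitor of receptor tyrosine kinase signalling, Arap3 (-3.39) and Arhgap26 (-2.28), both GTPase-activating proteins. The Spry4 call held in all 13 fits that left out a line, and those of Arap3 and Arhgap26 in 6 and 3.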

How the data were processed

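RNA-seq of 13 lines was analysed from 2 tables. Per the submitters' processing notes, reads were trimmed with cutadapt and the authors deposited expected counts and TPM made with RSEM. They name the builds mm10 and GRCm38. Not given in the sources used here are the aligner, annotation release, strand use and tool versions, and antisense transcripts were not separated.

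Expected counts were rounded to whole numbers, filtered with filterByExpr (13058 genes kept), scaled by TMM and tested with edgeR's quasi-likelihood test, genotype being the only term (edgeR 4.0.16, R 4.3.3). The Benjamini-Hochberg adjustment covered the 13058 genes, and a gene passed at an adjusted p under 0.05. All sums, shares, effective numbers and cosines (pandas 2.3.3, numpy 2.4.6) are descriptions without a test. The fit was tested on simulated data in which all genes had the same setting for spread and no line stood apart. How the fit performs on genes as uneven between lines as these members was not tested. Gene positions and types came from the RefSeq annotation of GRCm38, matched by symbol or else by transcript accession. Exons, transcript lengths and shared bases came from the GENCODE annotation of the same build, matched by RefSeq accession. Sequences of these genes were not used here.

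Alternatives were DESeq2 1.42.0, limma 3.58.1 (voom, and log2 TPM with pseudocounts of 1 and 0.1), other scalings and filters, WT lines 4 and 5 summed, and each line left out. Named were members called, the 4 members of each array with the highest mean TPM, the C-type genes and, of each list, up to 4 called genes or else the 2 with the lowest p, with 8 chromatin genes and Mapk8 and Mapk9. Further members were named after their values were seen. The members and lists were chosen with earlier results of these data known.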

Additional observations from a re-analysis of the deposited data

Results flagged for a closer look

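In 19 of 68 groups of values examined (27.9%), 1 line lay far above the others of its genotype. The limits used are 95% critical values, under which chance marks about 1 in 20 groups of normally spread values, and whether CPM values are so spread was not tested. The values below are CPM, with the next line's value after each.

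WT line 3 was the line so marked for Pcdhb5 (2.48, next 0.874), Pcdhb18 (3.93, next 1.83), Pcdhb19 (6.92, next 1.86), Pcdhb21 (2.29, next 0.968), Pcdhga3 (0.943, next 0.306), Pcdhgc5 (1.62, next 0.612) and the alpha sum (3.93, next 0.462). KO line 2 was marked for Pcdhb21 (1.94, next 0.541), Pcdhga6 (16.5, next 1.73), Pcdhga7 (15.7, next 5.76), Pcdhgc5 (20.2, next 1.25), the gamma sum (595, next 383) and the gamma A and B sum (118, next 64.0). KO line 5 was marked for Pcdhga5 (13.2, next 3.03) and KO line 7 for Pcdhb14 (2.42, next 1.10). WT line 5 was marked for Pcdhb14 (5.24, next 1.61) and Pcdhga9 (4.12, next 0.331), and WT line 2 for Pcdhgb7 (2.78, next 0.916) and Pcdhgb8 (4.75, next 1.26).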

How the results depend on the processing

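The count of members lower in KO lines, 2 in the main fit, was 1 with limma-voom, 1 with limma on log2(TPM + 1), 1 with log2(TPM + 0.1) and 1 with WT lines 4 and 5 summed, and ran from 1 to 2 as each line was left out. The count of members higher, 0 in the main fit, was 2 with DESeq2 and ran from 0 to 1. The limma fits on TPM tested 8 members, Pcdhga1 not among them. Over all genes, 566 were higher and 545 lower in the main fit, 1130 and 977 with DESeq2, 256 and 931 with limma on log2(TPM + 1), and 256 and 873 with log2(TPM + 0.1). As each line was left out they ran from 324 to 649 and from 316 to 592. The share of lower calls was larger in both fits on TPM, in which the unit, the test and the filter changed together.

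The median number of genes present per line depended on the limit, 1 TPM in the main count. At 0.5 TPM it was 4 and 4 for beta, 7.5 and 9 for gamma and 5.5 and 8 for gamma A and B, in WT and KO lines, against 2.5 and 1, 6 and 5, and 5 and 4 at 1 TPM. At 10 expected counts it was 12 and 11 for beta, 13.5 and 17 for gamma and 11.5 and 14 for gamma A and B, in WT and KO lines. As the inverse Simpson index, the effective number fell from 5.96 to 3.47 for beta in WT lines and from 10.9 to 7.48 in KO lines, and for gamma from 3.15 to 2.07 in WT lines and from 2.05 to 1.33 in KO lines. The log2 ratio of median summed TPM, KO to WT, ran from -1.47 to -1.28 for beta, 0.08 to 0.36 for gamma and -1.13 to -0.96 for gamma A and B as each line was left out. These ratios are in TPM, which ran lower in KO lines relative to CPM. In CPM the medians of WT and KO lines were 31.2 and 14.02 for beta, 258 and 351 for gamma, and 82.4 and 43.3 for gamma A and B.

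Of 724 alternative values for 34 named genes, 658 stayed on the same side of the threshold, 65 lost the call, 1 gained it and 0 called values changed sign. Among the 658 are 6 values, of 4 genes that did not pass, in which the sign turned: Pcdhgb6 (3), Pcdhgc5, Wapl and Setdb1. At 3 counts or fewer in a line, a gene at 0 is not shown to be silent. No paired analysis was possible because the labels give no replicate numbers that the groups share.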
